A study of Homo sapiens with 12 samples.

Results

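Complement is the protein cascade of blood plasma that marks cells for clearance and lyses them, and 9 of its genes were followed here in 2 leukaemia cell lines given the hypomethylating drug decitabine. The members were C3, CFB, CFD, C1R, C1S, C5, CD46, CD55 and CD59, which are 9 of the 18417 genes tested. They were named for their roles in the cascade with earlier results of these data known, and C3 was selected on its measured values, its log2 intensities with decitabine against untreated cells in both lines. The decitabine effect on C3 is therefore given below as a description without a test, and the other 8 members were tested. Each gene was represented by its brightest transcript cluster, the set of probes that an Affymetrix array holds for a transcript.

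KA is K562/ADR, a subline of K562 selected with adriamycin (doxorubicin, an anthracycline) and kept in 50 nM of that drug. KS is K562, an established erythroid leukaemia line from a chronic myeloid leukaemia. Decitabine, a cytidine analogue that traps DNA methyltransferases on DNA, was given at 5 nM for 72 hours. The 4 groups were KA with decitabine, untreated KA, KS with decitabine and untreated KS, with 3 arrays each and 12 in all. The labels leave unsaid whether replicates were separate cultures, so a p-value here measures the spread between arrays, which may be technical. They also leave unsaid whether untreated cells had a vehicle and whether KA had adriamycin alongside decitabine. KA and KS each stand for 1 line, and a difference between them cannot be told apart from any other difference between these 2 cultures.

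In the cascade, C1R and C1S are the proteases that start the classical pathway, and CFD cleaves CFB, whose fragment joins activated C3 in the convertase of the alternative pathway. All routes meet at C3, whose cleavage leads to the cleavage of C5 and to assembly of the membrane attack complex. Cells protect themselves with CD46, CD55 and CD59. CD46 spans the membrane, and CD55 and CD59 are held to it by a glycosylphosphatidylinositol (GPI) anchor. The liver makes most plasma complement, and macrophages and other cells also make it locally.

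Values were log2 intensities from 0.226 to 13.2, and the array medians over all 33297 transcript clusters lay between 4.96 and 5.01. Over the 18417 genes tested they lay between 5.47 and 5.62, with 5.57 to 5.61 in KA with decitabine, 5.54 to 5.55 in untreated KA, 5.58 to 5.62 in KS with decitabine and 5.47 to 5.54 in untreated KS. The alternative called median centring below removes these differences between arrays. Within a group, Pearson correlations between arrays were 0.990 to 0.995. All 6 measured K562 markers (GATA1, KLF1, TFRC, HBZ, HBE1 and TAL1) lay above the background limit in every group, with means from 7.34 to 12.73. That limit was 3.39, the highest lower quartile of any array, and a group with a mean at or below it was not shown to exceed background. One array, untreated KS replicate 3, deviated from its group. Results of the members that rest on it are given with and without it. Other genes are read over all arrays unless stated. In such whole-culture RNA, fewer cells making a transcript and less of it per cell cannot be told apart.

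C3, the central component of the cascade, was higher with decitabine in both lines. It stood at 6.62, 6.56 and 6.84 in KA with decitabine and at 5.01, 4.48 and 4.73 in untreated KA. In KS it stood at 7.30, 7.51 and 7.37 with decitabine and at 4.27, 4.32 and 5.97 untreated. All 6 treated arrays lay above all 6 untreated arrays, and the highest untreated value was that of untreated KS replicate 3. The group means were 6.67 ± 0.15 in KA with decitabine, 4.74 ± 0.26 in untreated KA, 7.39 ± 0.11 in KS with decitabine and 4.85 ± 0.96 in untreated KS (SD, n = 3 each). Treated KA exceeded untreated KA by 1.93 ± 0.33 on the log2 scale (SE), which is 3.82-fold, and treated KS exceeded untreated KS by 2.54 ± 0.33, which is 5.81-fold.

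Untreated KS replicate 3 decided several C3 values. Its C3 intensity was 1.67 above the mean of the other 2 untreated KS arrays on the log2 scale, and stood 28.9% of the way to the treated KS mean on the linear scale. Without this array the KS difference was 3.09 ± 0.14. The KA difference minus the KS difference was -0.61 ± 0.47 with it and -1.16 ± 0.18 without it, and neither was tested.

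The comparison of the lines was not used to choose C3 and was tested. Among treated cells, C3 was lower in KA than in KS by 0.72 on the log2 scale (a difference of -0.72 ± 0.33), and the 3 arrays of each group did not overlap. Fitted over all 12 arrays with limma, this gave an adjusted p of 0.141 (Benjamini-Hochberg over 18417 genes), which does not pass the threshold of 0.05. In limma fits without untreated KS replicate 3, or with the 6 treated arrays alone, the adjusted p was 0.000763 and 0.000628 at the same difference. Among untreated cells, limma gave a C3 difference of -0.11 ± 0.33 between KA and KS (adjusted p = 0.852). Without untreated KS replicate 3 its sign turned, to 0.45 ± 0.14 (limma, adjusted p = 0.0301).

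**Figure D1:**
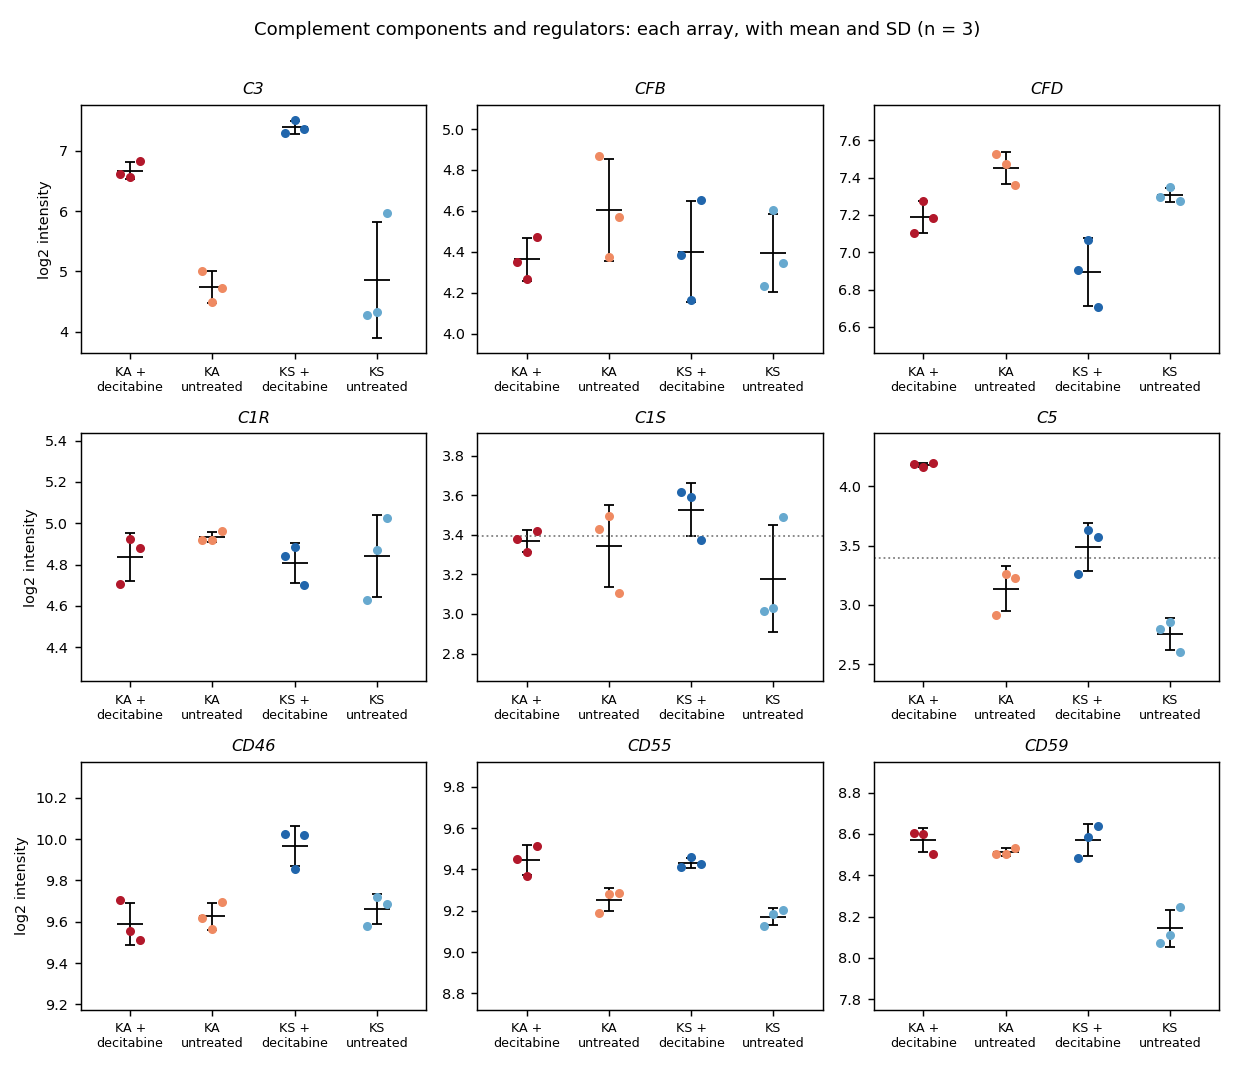
Log2 intensity of the 9 complement genes on each of the 12 arrays, in the order KA with decitabine, untreated KA, KS with decitabine, untreated KS. Points are arrays and bars are means with SD (n = 3), each panel has its own vertical scale, and the dotted line is the background limit of 3.39. Untreated KS replicate 3 stands at 5.97 for C3, above the other 2 untreated KS arrays, and treated KA and treated KS stand above their untreated groups for C3, C5 and CD55.

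C5, the component whose cleavage starts the membrane attack complex and releases the attractant peptide C5a, rose with decitabine in both lines. It stood at 4.18, 4.16 and 4.19 in KA with decitabine and at 2.92, 3.26 and 3.23 in untreated KA. Treated KS arrays gave 3.26, 3.63 and 3.57, and untreated KS arrays gave 2.80, 2.86 and 2.60. No untreated array of either line exceeded the background limit, while all 3 treated KA arrays and 2 of 3 treated KS arrays did. The rise was 1.04 ± 0.11 in KA (adjusted p = 0.000185, limma) and 0.74 ± 0.11 in KS (adjusted p = 0.000316). Because the untreated means lay below the limit, the folds are bounds: C5 was at least 1.72-fold higher in treated KA than in untreated KA, and at least 1.07-fold higher in treated KS than in untreated KS.

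The C5 response did not pass the test of a difference between the lines (KA minus KS 0.31 ± 0.16, 95% interval -0.04 to 0.66, limma adjusted p = 0.282). The level of C5 after treatment was higher in KA than in KS by 0.69 ± 0.11 (limma, adjusted p = 0.000504), and the arrays of the 2 groups did not overlap. Among untreated cells C5 passed the test (a KA minus KS difference of 0.38 ± 0.11, limma adjusted p = 0.0245) with both group means below the limit, so no fold or direction is read from it. That call was lost without untreated KA replicate 2 (adjusted p = 0.101), untreated KA replicate 3 (0.0835) or untreated KS replicate 3 (0.0849).

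C5 has 2 promoter windows in RefSeq (GRCh38.p14), each from 250 bases before to 50 after a listed transcript start. They are shown because decitabine acts through methylation of CG sites, and the windows of this responding gene hold 33 and 1 CG pairs. CG pairs are in capitals. The window at chr9:121074816-121075115 (minus strand) and that at chr9:121050226-121050525 (minus strand) read as follows.
C5 window 1: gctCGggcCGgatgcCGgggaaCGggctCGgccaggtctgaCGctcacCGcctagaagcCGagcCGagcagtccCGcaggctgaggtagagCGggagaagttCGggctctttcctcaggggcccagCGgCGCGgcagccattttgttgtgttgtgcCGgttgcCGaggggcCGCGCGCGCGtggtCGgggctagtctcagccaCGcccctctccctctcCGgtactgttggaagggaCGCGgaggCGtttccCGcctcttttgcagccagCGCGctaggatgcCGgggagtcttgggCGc
C5 window 2: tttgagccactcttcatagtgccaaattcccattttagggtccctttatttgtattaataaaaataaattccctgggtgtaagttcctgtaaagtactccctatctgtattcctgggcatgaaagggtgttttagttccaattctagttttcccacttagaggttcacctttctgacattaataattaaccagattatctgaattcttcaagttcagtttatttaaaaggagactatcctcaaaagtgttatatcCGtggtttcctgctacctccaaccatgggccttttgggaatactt
The CG count of the first exceeded that of 82.8% of the 34943 windows of all genes, and that of the second exceeded 3.98%. Which start is used in these cells was not measured, nor was methylation.

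CFB and CFD, the serine proteases of the alternative pathway, were read next. CFD passed the test with decitabine in KS, and CFB in neither line. CFB, which is cleaved to the catalytic part of the convertase, stood at 4.35, 4.27 and 4.47 in KA with decitabine, against 4.87, 4.37 and 4.57 in untreated KA. With decitabine KS arrays stood at 4.38, 4.16 and 4.65, against 4.23, 4.60 and 4.35 in untreated KS. These groups overlapped within each line. The CFB difference was -0.24 ± 0.14 in KA (limma, adjusted p = 0.306) and 0.00 ± 0.14 in KS (limma, adjusted p = 0.986). CFB has 3 transcript clusters on the array. The other 2 gave differences of -0.07 and -0.08 in KA and 0.09 and 0.07 in KS, and between the treated lines they gave 0.05 each where the one used gave -0.04.

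CFD, or adipsin, cleaves CFB once that is bound to activated C3. It stood at 7.10, 7.28 and 7.18 in KA with decitabine and at 7.53, 7.47 and 7.36 in untreated KA. The KS values were 6.91, 7.07 and 6.71 with decitabine and 7.30, 7.35 and 7.28 untreated. Treated arrays lay below untreated arrays in both lines. The fall passed the test in KS, where CFD fell by 0.41 ± 0.09 on the log2 scale (limma, adjusted p = 0.0035). In KA the difference was -0.27 ± 0.09 (limma, adjusted p = 0.0699), and it was called when arrays were centred on their medians (-0.32, adjusted p = 0.0307).

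CFD was higher in treated KA than in treated KS by 0.29 ± 0.09 (limma, adjusted p = 0.028). This call was lost in 7 of 20 alternative fits, with an adjusted p of up to 0.127 without treated KS replicate 3. The CFD promoter window is shown as the one of the member that fell. It lies at chr19:859414-859713 (plus strand) and holds 13 CG pairs, in capitals, where the median of all windows is 14.
CFD window: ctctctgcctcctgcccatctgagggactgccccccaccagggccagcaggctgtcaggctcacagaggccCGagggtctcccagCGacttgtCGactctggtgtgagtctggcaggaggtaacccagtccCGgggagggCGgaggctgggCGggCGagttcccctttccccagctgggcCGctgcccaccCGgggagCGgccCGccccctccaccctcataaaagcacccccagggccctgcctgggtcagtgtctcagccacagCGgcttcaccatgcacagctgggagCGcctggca
It holds the hexamer GGGCGG, searched on both strands, 3 times, and 44.9% of all windows hold it at least once. The C5 windows shown above hold none.

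C1R and C1S, the paired proteases of the C1 complex, lie next to each other on chromosome 12. C1R, which activates C1S, stood at 4.71, 4.92 and 4.88 in KA with decitabine and at 4.92, 4.92 and 4.96 in untreated KA. In KS the arrays read 4.84, 4.88 and 4.70 with decitabine and 4.63, 4.87 and 5.02 untreated. The C1R groups overlapped in every comparison, and none of its differences passed the test (range -0.10 to 0.09, limma, lowest adjusted p = 0.548).

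C1S, which cleaves C4 and C2, stood at 3.38, 3.31 and 3.42 in KA with decitabine and at 3.43, 3.50 and 3.11 in untreated KA. In KS it stood at 3.62, 3.59 and 3.37 with decitabine and at 3.02, 3.03 and 3.49 untreated. Its mean exceeded the background limit only in treated KS. The KS difference was 0.35 ± 0.13 (limma, adjusted p = 0.0647), and the KA difference was 0.03 ± 0.13 (limma, adjusted p = 0.927). Without untreated KS replicate 3 the KS difference was 0.50 and was called (limma, adjusted p = 0.00485). The untreated KS mean lay below the limit, and the C1S difference over all arrays did not pass the test. No fold is therefore read from it.

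The 3 membrane regulators each rose with decitabine in KS. In KA none passed the test, and CD55 alone passed it in some alternative fits (3 of 20). CD46, the cofactor for cleavage of C3b and C4b, stood at 9.70, 9.55 and 9.51 in KA with decitabine and at 9.62, 9.57 and 9.69 in untreated KA. With decitabine KS arrays stood at 10.02, 9.86 and 10.02, against 9.58, 9.72 and 9.69 in untreated KS. The treated KS arrays lay above all other arrays. In KA the CD46 difference was -0.04 ± 0.08 (95% interval -0.21 to 0.13, limma adjusted p = 0.807). In KS CD46 rose by 0.30 ± 0.08 (limma, adjusted p = 0.00965), and treated KA was lower than treated KS by 0.38 (-0.38 ± 0.08, limma adjusted p = 0.00269). The difference between the responses was -0.34 ± 0.11 and did not pass the test (limma, adjusted p = 0.0881). It was called with quantile normalization (limma, adjusted p = 0.0359) and with a variance trend (0.0204).

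CD55, or decay-accelerating factor, takes C3 convertases apart. It stood at 9.45, 9.37 and 9.51 in KA with decitabine and at 9.19, 9.28 and 9.29 in untreated KA. The KS values were 9.41, 9.46 and 9.43 with decitabine and 9.13, 9.18 and 9.21 untreated. All 6 treated arrays lay above all 6 untreated arrays. The difference was 0.19 ± 0.06 in KA, which did not pass the test (limma, adjusted p = 0.0686), and 0.26 ± 0.06 in KS, which did (limma, adjusted p = 0.00785), and the difference between the responses was -0.07 ± 0.09 (limma, adjusted p = 0.71). With each array centred on its median, the KS calls of CD46 (0.20, adjusted p = 0.0861) and CD55 (0.16, adjusted p = 0.0869) were lost. The KA difference of CD55 was called with quantile normalization (limma, adjusted p = 0.0356), with dim genes left out (0.0492) and with a variance trend (0.0154).

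CD59, which stops the membrane attack complex from forming a pore, stood at 8.61, 8.60 and 8.50 in KA with decitabine and at 8.50, 8.50 and 8.53 in untreated KA. In KS the arrays read 8.49, 8.59 and 8.64 with decitabine and 8.07, 8.11 and 8.25 untreated. Untreated KS was the low group, and the other 3 groups overlapped. The CD59 difference was 0.06 ± 0.07 in KA (limma, adjusted p = 0.642), and in KS CD59 rose by 0.43 ± 0.07 (limma, adjusted p = 0.000495). It was higher in untreated KA than in untreated KS by 0.37 ± 0.07 (limma, adjusted p = 0.00157), and the difference among treated cells was 0.00 ± 0.07 (95% interval -0.15 to 0.15, limma adjusted p = 0.996). The difference between the responses passed the test, at -0.37 ± 0.10 (limma, adjusted p = 0.0448). That last call was lost with a replicate block (adjusted p = 0.0784), with median centring (0.069), and without any 1 array other than treated KS replicate 1 or untreated KS replicate 3 (adjusted p of up to 0.11, without untreated KS replicate 1).

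RefSeq lists 4 promoter windows for CD59, and 2 of them hold 1 CG pair each while the others hold 18 and 22. CD59 was the member called for the difference of the responses, a call lost under 12 of 19 alternatives. One of its windows is shown for that reason, at chr11:33736430-33736729 (minus strand) with 18 CG pairs in capitals.
CD59 window 1: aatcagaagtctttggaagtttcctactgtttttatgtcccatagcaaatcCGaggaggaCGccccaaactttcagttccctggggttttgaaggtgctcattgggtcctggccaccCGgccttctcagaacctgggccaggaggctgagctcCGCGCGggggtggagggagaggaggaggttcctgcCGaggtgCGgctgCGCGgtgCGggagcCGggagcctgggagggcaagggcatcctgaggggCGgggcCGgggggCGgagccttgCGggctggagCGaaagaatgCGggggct
It holds GGGCGG 2 times. Of the other members with windows, CFB held 7 CG pairs, C1R 10 and 8, CD46 25 in each of 2 overlapping windows, and CD55 19. RefSeq windows were matched for 7 of the 9 members, and C3 and C1S were not among them. All 34943 windows had a median of 14 CG pairs with quartiles at 4 and 28.

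**Figure D2:**
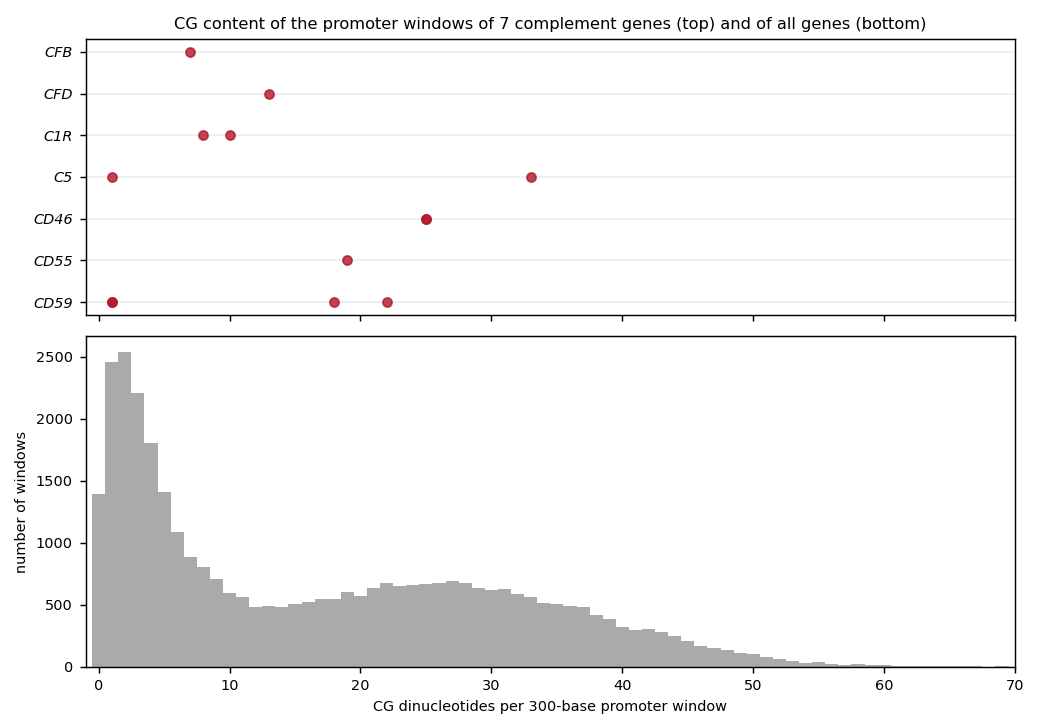
Number of CG dinucleotides in each 300-base promoter window of 7 complement genes (top, 1 point per window) and the distribution over all 34943 windows (bottom, number of windows). The members range from 1 to 33 against a median of 14.

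Counted over the members, 1 of the 8 tested was called with decitabine in KA, where 14.6% of all genes were called. It was called higher, where 9.66% of all genes were called higher. In KS 5 of 8 were called, where 30.3% of all genes were called. Of these, 4 were called higher and 1 lower, beside 14.6% of all genes called higher and 15.7% called lower. These contrasts were used to choose C3, and nothing is read from their counts. The difference between the responses was called for 1 of 8 members (6.74% of all genes), CD59, whose response was smaller in KA (2.14% of all genes were called in that direction). Among untreated cells 2 of 9 members (CD59 and C5) were called, both with a positive KA minus KS difference, where 25.7% of all genes were called and 11.6% called higher. C5 was below the background limit in both of these groups. Among treated cells 3 of 9 were called, where 27.0% of all genes were called. Of these 2 were higher in KA and 1 lower, beside 15.1% of all genes called higher and 11.9% called lower.

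The median difference over the 8 members other than C3 was -0.01 in KA and 0.28 in KS with decitabine, beside -0.02 and -0.01 over all genes. Over all 9 members it was 0.15 between untreated KA and KS and 0.00 between the treated lines, beside 0.02 and 0.00 over all genes. Arrays of the 2 groups did not overlap for 3 of the 8 members other than C3 with decitabine in KA, where this held for 35.9% of all genes. Of them 2 lay higher and 1 lower, beside 19.5% and 16.4% of all genes. In KS arrays did not overlap for 5 of the 8, 4 higher and 1 lower, where this held for 40.0% of all genes, 19.3% higher and 20.7% lower. Nothing is read from these counts either. Between untreated KA and KS arrays did not overlap for 3 of the 9 members, all with higher values in KA. This held for 38.4% of all genes, 18.4% higher. The 3 were CFD, CD59 and C5, and C5 was below the background limit in both groups, so no direction is read from it. Between treated KA and KS arrays did not overlap for 4 members, 2 higher in KA and 2 lower, where this held for 41.5% of all genes, 22.1% higher and 19.4% lower.

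**Figure D3:**
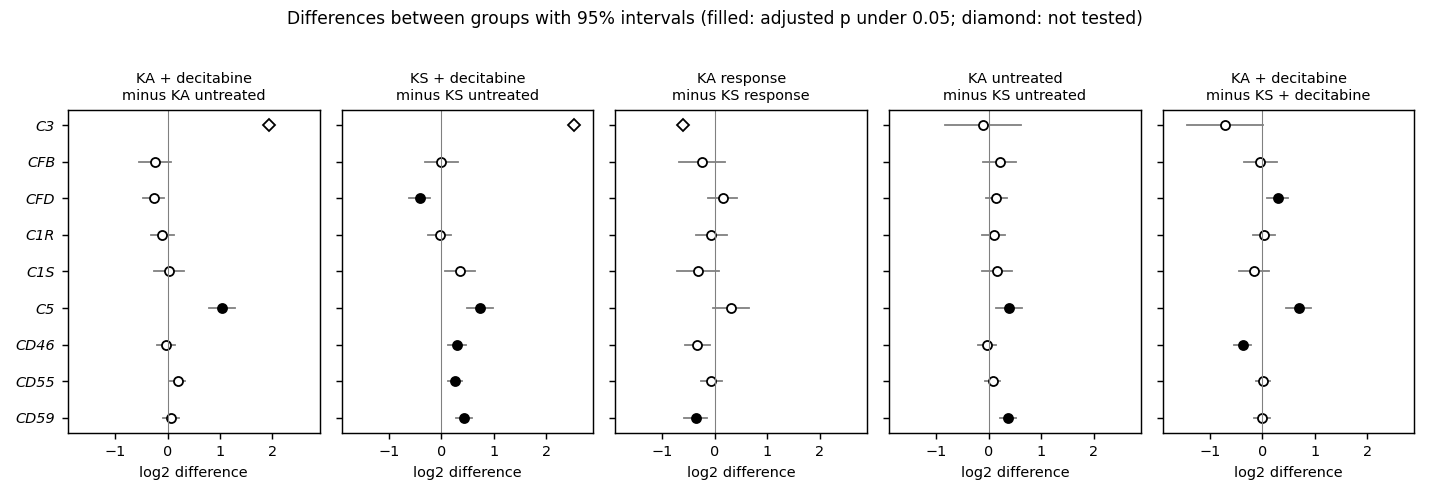
Differences in log2 intensity for the 9 members in 5 comparisons, one panel each, with the 95% interval of the limma fit. Filled points passed an adjusted p of 0.05, open circles did not, and diamonds mark C3 where it was not tested. C5 is filled to the right of 0 in both decitabine panels, and CD46, CD55 and CD59 are filled in the KS panel.

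Beyond the members, 43 other complement genes with a transcript cluster of their own were read from lists by role. With decitabine 3 of the 43 were called in KA (2 higher, 1 lower), beside 14.6% of all genes (9.66% higher, 4.96% lower). In KS 14 were called (11 higher, 3 lower), beside 30.3% of all genes (14.6% higher, 15.7% lower). Between the lines 6 were called untreated (2 higher in KA, 4 lower), beside 25.7% of all genes (11.6% higher, 14.1% lower). Among treated cells 8 were called (3 higher, 5 lower), beside 27.0% (15.1% higher, 11.9% lower). Of the 13 receptors and other membrane regulators, 7 were called in KS, of 9 fluid-phase regulators 4, of 9 lectin pathway genes 1, of 6 terminal components 1, and of the 2 measured genes among C2, C4 and properdin 1. None of the 4 genes of C1q and its inhibitor was called in any of the 5 comparisons by limma, and 0 had an unadjusted p under 0.05, with differences from -0.24 to 0.32.

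CR2, the B cell receptor for C3 fragments, lies with CR1 and CR1L between CD55 and CD46 on chromosome 1. It stood at 4.60, 4.53 and 4.41 in KA with decitabine and at 3.62, 3.82 and 3.61 in untreated KA. Treated KS arrays gave 4.54, 4.57 and 4.74, and untreated KS arrays gave 3.57, 3.62 and 3.72. Treated arrays lay above untreated ones in both lines, and CR2 rose by 0.83 ± 0.09 in KA (limma, adjusted p = 0.000132) and by 0.98 ± 0.09 in KS (limma, adjusted p = 8.54e-06). Its neighbour CR1, the receptor for C3b, rose in KS by 0.43 ± 0.13 (limma, adjusted p = 0.0265), a call lost under some alternatives. The untreated KS mean of CR1 lay below the background limit, so that CR1 was at least 1.25-fold higher in treated KS than in untreated KS.

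C3AR1, the receptor for the C3a peptide, differed between the lines in its response to decitabine. It stood at 6.48, 6.50 and 6.70 in KA with decitabine and at 6.14, 6.17 and 6.39 in untreated KA. In KS it stood at 5.47, 5.49 and 5.23 with decitabine and at 6.75, 6.54 and 6.47 untreated. The treated KS arrays lay below all the others. The KA difference was 0.33 ± 0.10 and not called (limma, adjusted p = 0.0552; called under 6 of 20 alternatives), and in KS C3AR1 fell by 1.19 ± 0.10 (limma, adjusted p = 8.64e-06). The difference between the responses was 1.51 ± 0.15 (limma, adjusted p = 0.000821) and was called under all 19 alternatives, with adjusted p from 1.73e-05 to 0.00455. Treated KA was higher than treated KS (1.17 ± 0.10, limma adjusted p = 2.95e-06), and untreated KA was lower than untreated KS (-0.35 ± 0.10, limma adjusted p = 0.0255, lost under some alternatives). C5AR2, a receptor for C5a, had a KA difference of -0.01 ± 0.10 (limma, adjusted p = 0.968) and rose in KS by 0.38 ± 0.10 (limma, adjusted p = 0.0147). That KS call was lost under 3 of 20 alternatives. The C5AR2 responses did not pass the test of a difference (-0.38 ± 0.15, limma adjusted p = 0.143).

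CD93, a membrane glycoprotein once named as a receptor for C1q, stood at 5.15, 5.35 and 5.26 in KA with decitabine and at 4.82, 4.52 and 4.83 in untreated KA. The KS values were 6.93, 6.89 and 7.08 with decitabine and 5.44, 5.46 and 6.03 untreated. The KS arrays lay above the KA arrays under both conditions. CD93 rose by 0.53 ± 0.14 in KA (limma, adjusted p = 0.025) and by 1.32 ± 0.14 in KS (limma, adjusted p = 2.32e-05), and the responses differed by -0.79 ± 0.20 (limma, adjusted p = 0.0345). The CD93 calls in KA and of the difference were lost under some alternatives. Its KS arrays include untreated KS replicate 3, at 6.03. With each array left out in turn, the CD93 rise in KS ran from 1.22 to 1.515. The difference of its responses ran from -0.986 to -0.691. C1QBP, a protein that binds the heads of C1q and resides mainly in mitochondria, fell in both lines, with a difference of -0.44 ± 0.07 in KA (limma, adjusted p = 0.0019) and -0.70 ± 0.07 in KS (limma, adjusted p = 2.02e-05).

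Among the fluid-phase regulators VTN (vitronectin, an inhibitor of the terminal complex) stood at 4.70, 4.55 and 4.76 in KA with decitabine and at 4.75, 4.78 and 4.71 in untreated KA. Its KS values were 5.16, 5.26 and 5.26 with decitabine and 4.57, 4.83 and 4.90 untreated, so that the treated KS arrays lay above all the others. VTN rose in KS by 0.46 ± 0.09 (limma, adjusted p = 0.00161), and the responses differed by -0.54 ± 0.13 (limma, adjusted p = 0.0266). The call of that difference was lost under 8 of 19 alternatives, with a limma adjusted p of up to 0.0693. CLU (clusterin), C2 and C8G rose in KS by 0.33 to 0.56, with limma adjusted p from 0.0231 to 0.0462. The untreated KS mean of CFHR4 lay below the background limit, and CFHR4 was at least 1.23-fold higher in treated KS than in untreated KS (limma, adjusted p = 0.0223). These 4 calls were lost under some alternatives. CSMD1, a membrane regulator, was higher in KA than in KS both treated (0.57 ± 0.08, limma adjusted p = 0.000101) and untreated (0.47 ± 0.08, limma adjusted p = 0.000545). Of the 14 calls in KS, 5 (VTN, CR2, CD93, C1QBP and C3AR1) held under all 20 alternatives.

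**Figure D4:**
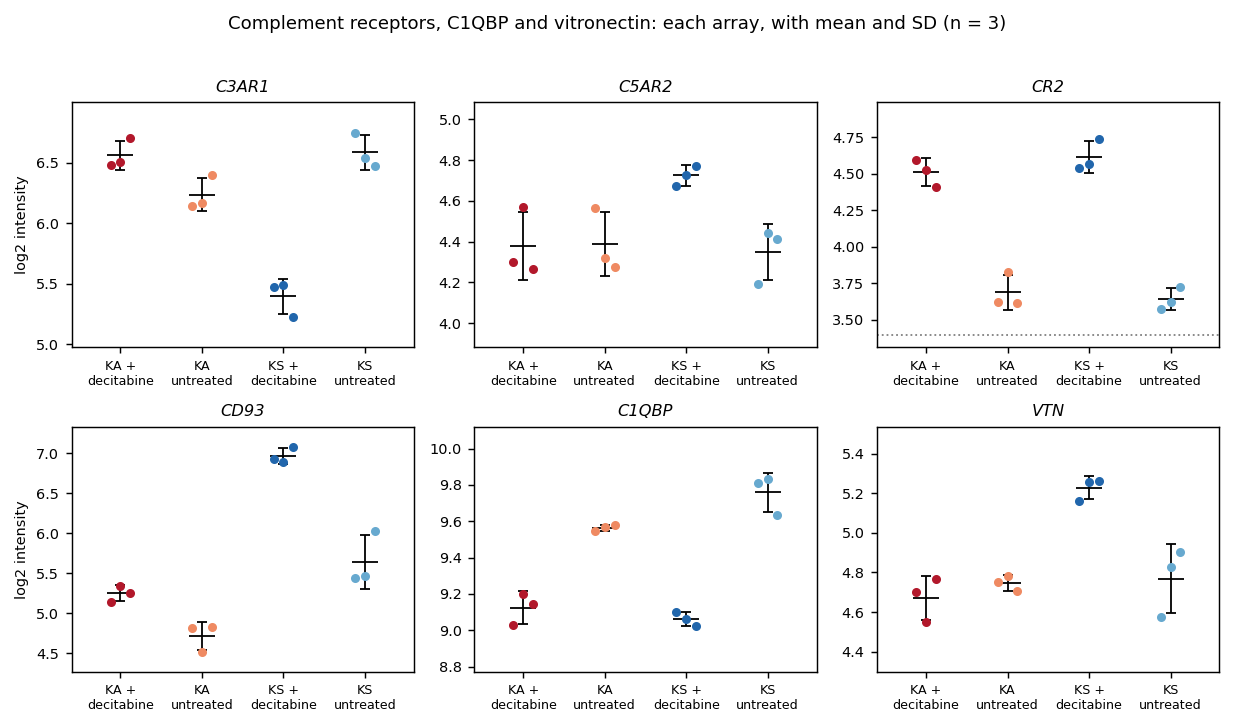
Log2 intensity of C3AR1, C5AR2, CR2, CD93, C1QBP and VTN on each array, in the order KA with decitabine, untreated KA, KS with decitabine, untreated KS, with mean and SD (n = 3). CR2 is higher in both treated groups, and C3AR1 is low in treated KS alone, at 5.47, 5.49 and 5.23.

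CD55 and CD59 reach the surface only on a GPI anchor, so the genes that build it were read beside them. Of 27 measured genes 4 were called with decitabine in KA (2 higher, 2 lower), beside 14.6% of all genes (9.66% higher, 4.96% lower). In KS 7 were called (1 higher, 6 lower), beside 30.3% (14.6% higher, 15.7% lower). In KS, PIGW, an acyltransferase of the pathway, fell by 1.17 ± 0.13 (-1.17, limma adjusted p = 2.47e-05), and PIGO, which adds ethanolamine phosphate, differed by -0.68 ± 0.07 (limma, adjusted p = 1.91e-05). PIGZ, which adds a side-chain mannose, rose in KS by 1.43 ± 0.18 (limma, adjusted p = 7.13e-05). In KA PIGO was called too (-0.31 ± 0.07, limma adjusted p = 0.0118, lost in 1 of 20 alternative fits). PIGW (-0.36 ± 0.13, limma adjusted p = 0.0741) and PIGZ (0.53 ± 0.18, 0.0702) had the same direction in KA. Both were called there only in some alternative fits. The PIGZ responses differed by -0.90 ± 0.26, which did not pass the test (limma, adjusted p = 0.0537). PIGU, a subunit of the transamidase that attaches the anchor, fell in both lines, with differences of -0.34 ± 0.08 in KA (limma, adjusted p = 0.017) and -0.52 ± 0.08 in KS (limma, adjusted p = 0.000364). The KA call of PIGU was lost in 3 of 20 alternative fits, with an adjusted p of up to 0.0672. The 2 genes called higher in KA were PIGQ (0.43 ± 0.08, limma adjusted p = 0.00351) and PGAP2 (0.29 ± 0.07, limma adjusted p = 0.0197). Of the 4 calls in KA, that of PIGQ alone was kept under every alternative.

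Between the lines 13 of the 27 GPI genes were called untreated (5 higher in KA, 8 lower), beside 25.7% of all genes (11.6% higher, 14.1% lower). Among treated cells 11 were called (6 higher, 5 lower), beside 27.0% (15.1% higher, 11.9% lower). PGAP1, which trims the anchor after attachment, stood at 3.32, 3.33 and 3.15 in KA with decitabine and at 5.03, 4.96 and 5.27 in KS with decitabine. Without decitabine it stood at 3.07, 3.02 and 3.12 in KA and at 5.09, 4.94 and 4.86 in KS. Both KA means lay below the background limit, and PGAP1 was at least 3.24-fold lower in treated KA than in treated KS and at least 2.97-fold lower in untreated KA than in untreated KS (limma, adjusted p = 1.42e-08 and 1.07e-08). PIGA, the catalytic subunit of the first step, was higher in KA by 0.55 ± 0.10 among treated cells (limma, adjusted p = 0.00109) and by 0.30 ± 0.10 among untreated cells (limma, adjusted p = 0.042, lost under some alternatives). PIGB was higher in KA by 0.65 ± 0.09 among treated cells (limma, adjusted p = 0.000151) and by 0.69 ± 0.09 among untreated cells (limma, adjusted p = 0.00011). Both PIGB calls held under all 20 alternatives. PIGX, a subunit of the first mannosyltransferase, was lower in KA by 0.63 to 0.69 (-0.63 ± 0.10 treated, -0.69 ± 0.10 untreated).

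Markers of other cell types were read beside C3. Of 6 measured macrophage and monocyte markers, LYZ, the lysozyme gene, was called in both lines, with a rise of 1.77 ± 0.34 in KA (limma, adjusted p = 0.00457) and 2.61 ± 0.34 in KS (limma, adjusted p = 8.93e-05). Its means were 8.98 in KA with decitabine and 7.21 in untreated KA, and 11.01 in KS with decitabine and 8.40 in untreated KS. The log2 values summed over this list ran from 28.04 to 28.63 in KA with decitabine and from 26.74 to 27.09 in untreated KA. They ran from 30.26 to 30.85 in KS with decitabine and from 25.93 to 28.96 in untreated KS. The LYZ values are given over all arrays, with untreated KS replicate 3 included. FCGR3A was called in KS (0.48, limma adjusted p = 0.00761) with its means below the limit, and CD14, CSF1R, CD163 and MARCO were not called with decitabine in either line. By limma 0 of 6 hepatocyte markers and 0 of 5 lymphoid markers were called with decitabine in either line. At an unadjusted p under 0.05 the hepatocyte counts were 1 in KA and 0 in KS, and the lymphoid counts 0 in KA and 1 in KS. Of 7 fibroblast and endothelial markers COL1A1 alone was called, with 0.32 in KA and 0.52 in KS. The part of these markers in the C3 values was not tested.

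Over the 12 arrays, C3 was compared, as a description only, with each of the 1245 genes whose 4 group means ranged over at least 1 on the log2 scale. The arrays share their groups, so a gene that differs with decitabine in both lines can correlate with C3 for that reason alone. The 5 genes with the highest Pearson r were GPX3 (0.993), RASGRP4 (0.986), SLC6A19 (0.984), ACSF2 (0.984) and GCNA (0.984). GPX3 is an extracellular glutathione peroxidase, and its means were 5.90 in KA with decitabine, 4.11 in untreated KA, 6.35 in KS with decitabine and 4.32 in untreated KS. RASGRP4 is a Ras exchange factor of myeloid and mast cells, SLC6A19 a neutral amino acid transporter of gut and kidney, ACSF2 an acyl-CoA synthetase and GCNA a germ cell protein. All 5 were higher in untreated KS replicate 3 than on the other 2 untreated KS arrays. Without that array GPX3 and RASGRP4 still ranked 1 and 2, and GCNA ranked 8.

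Of the other members, CD55 had the highest r with C3 (0.852), and CFD the lowest (-0.802). C1S (0.672), CD59 (0.633), C5 (0.615) and CD46 (0.551) lay between, and C1R (-0.098) and CFB (-0.258) followed C3 least.

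**Figure D5:**
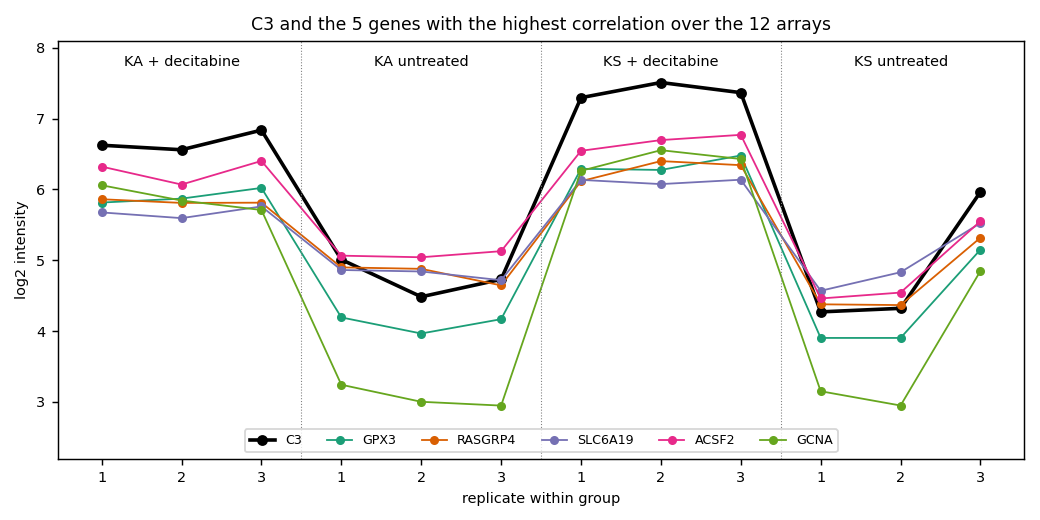
Log2 intensity on the 12 arrays of C3 (black) and of GPX3, RASGRP4, SLC6A19, ACSF2 and GCNA, with replicates 1 to 3 within KA with decitabine, untreated KA, KS with decitabine and untreated KS. All 6 lines are high in both treated groups and higher in untreated KS replicate 3 than in the other 2 untreated KS arrays.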

How the data were processed

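The 12 arrays were Affymetrix arrays of biotin-labelled cRNA from 6 µg of Trizol-extracted total RNA, per the labels' protocols. The deposited values are log2 intensities, used unscaled. The steps by which the authors corrected, summarized and normalized them are not given in the sources used here. The platform annotation gives 1 gene symbol to 19460 of the 33297 transcript clusters, several to 1754 and none to 12083, and 19429 of the first kind matched a RefSeq gene by Entrez identifier. A gene was read from its cluster with the highest mean, which left 18417 genes (769 had a choice of clusters).

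The 4 group means were fitted over all 12 arrays in limma 3.58.1 (R 4.3.3; 8 residual and 4.71 prior degrees of freedom), with Benjamini-Hochberg adjustment over all genes and a threshold of 0.05. The fit was tested on simulated data with independent normal errors and no deviating array, so that test does not cover such an array. The number of arrays limits the precision. The members, named for their roles, the role lists and the 2 arrays left out together were chosen with earlier results of these data known. Members were named throughout. The values of other complement and GPI genes were given only for genes called with a log2 change of at least 0.3 in any comparison. COLEC11, C6, CFHR2, ITGAM, SUSD4, PIGC, PIGM, PIGN and DPM1 also met this rule and were read only in the counts. The genes most like C3 were the 5 with the highest Pearson correlation over the 12 arrays among genes whose group means ranged over at least 1.

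Alternatives were centring each array on its median over the 18417 genes (5.47 to 5.62 before centring), quantile normalization, leaving out dim genes, averaging a gene's clusters, a replicate block, a fit of the compared groups alone, a variance trend and leaving out arrays. Promoter windows came from RefSeq (GRCh38.p14). The array's genome build is not given, so no array coordinates are printed. Python 3.11.15 with matplotlib 3.10.9 drew the figures.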

Additional observations from a re-analysis of the deposited data

Results flagged for a closer look

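The response to decitabine differed between KA and KS, by the test of the difference itself, for 7 of the 78 genes tested here (8 members, 43 other complement genes and 27 GPI anchor genes), beside 6.74% of all genes. CD59 was the only member among them, with a KA response minus KS response of -0.37 on the log2 scale. Of the other complement genes, C3AR1 differed by 1.51, CD93 by -0.79 and VTN by -0.54. Of the GPI anchor genes, PIGW differed by 0.81, DPM2 (the regulatory subunit of dolichol-phosphate-mannose synthase) by 0.40 and PIGO by 0.38. C3AR1 alone among the 7 kept its call under all 19 alternatives, and the other 6 lost it under at least 1. These genes share their arrays, untreated KS replicate 3 included, and the part of that array was not tested beyond leaving it out.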

How the results depend on the processing

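Of 881 member values under the alternatives, 835 were counted as kept, 24 lost a call, 16 gained one, 4 untested C3 values moved and 2 reversed. Kept values stayed on their side of the threshold or, for untested C3, within the pooled SD of the groups. A change of sign in a tested value counted as reversed only with a call in either fit. Tested values that changed sign without a call are among those kept. The reversed value was C3 between untreated KA and KS, at 0.45 without untreated KS replicate 3 and at 0.45 without that array and treated KS replicate 1 (adjusted p = 0.0301 and 0.0362). Without both arrays the C3 difference in KS was 3.14 and the KA minus KS difference -1.21. The count of members called with decitabine in KA (1) was 2 with median centring, 2 with quantile normalization and 3 with a variance trend, and in KS (5) it was 3 with median centring. For the difference of the responses (1) it was 0 with median centring and with the replicate block (3 and 2 at an unadjusted limma p under 0.05), and 2 with quantile normalization and with the trend. Among untreated cells (2) it was 1 with dim genes left out, which removes C1S and C5. Other complement genes called in KA (3) were 5 with median centring, and called for the difference of the responses (3) were 6 without the 2 arrays. All genes called for that difference (1241) were 778 with the replicate block, 1921 with the trend and 2035 without the 2 arrays.

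Leaving out each array in turn, the counts of all genes ran from 1653 to 3020 in KA (2694) and from 564 to 2049 for the difference, highest without untreated KS replicate 3. C3 between untreated KA and KS ran from -0.40 (without untreated KS replicate 1) to 0.45. The members' counts ran from 1 to 2 in KA, from 0 (2 to 3 at an unadjusted p) to 1 for the difference and from 1 to 2 untreated. The other complement genes' counts ran from 2 to 5 in KA, from 8 to 17 in KS (14, lowest without untreated KS replicate 2), from 1 to 4 for the difference and from 3 to 8 untreated (6).

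Centring each array on its median over the 18417 genes split the calls into 1325 higher and 1409 lower in KA (1780 and 914 as deposited), 1840 and 4397 in KS (2685 and 2900), and 1105 and 328 for the difference (847 and 394, or 574 and 540 with quantile normalization). It moved the median difference of all genes in KS to -0.11, against -0.01 as deposited. The quantile split in KA was 1647 and 1356. Replicate numbers did not pair the arrays: deviations of same-numbered arrays correlated at -0.26 to 0.187. With the replicate block 2245 genes were called in KA, 5156 in KS, 4340 between untreated and 4653 between treated lines. Dim signals limit C1S outside treated KS and untreated C5, whose group means were not shown to exceed background. The fit of the compared groups alone gives no difference of responses.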
